A study of Mus musculus with 2 samples.

Results

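The genes described here are 6 haemoglobin and erythroid genes, chosen by name from the 55536 annotated genes measured. They are the alpha globin genes Hba-a1 and Hba-a2, the adult beta globin genes Hbb-bs and Hbb-bt, Alas2 and Slc4a1. All 6 were found by symbol in the annotation, and 4 of them, the globins, had a mean CPM (counts scaled to library size) of at least 5. The tissue was the left cerebral cortex of female B6CASTF1/J mice, first-generation offspring of a C57BL/6 and CAST cross, taken at 25 days of age. Total RNA-seq libraries were prepared from 300 ng of input, to which ERCC spike-ins (synthetic RNAs of known amount) had been added. There were 2 libraries, biological replicates 1 and 2 of 1 group, and no treatment or mutant is named. The labels give each cortex its own animal number and both the same donor identifier. If the pair came from 1 animal, the spread between them covers preparation only.

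Haemoglobin carries oxygen in red cells and is a tetramer of alpha and beta globin chains, each holding a haem group. The mouse alpha genes lie in a cluster on chromosome 11 and the beta genes in a cluster on chromosome 7, and both clusters also hold embryonic genes. Alas2 makes the erythroid form of 5-aminolevulinate synthase, which catalyses the first and rate-limiting step of haem synthesis in red cell precursors, and its relative Alas1 does so in other cells. Slc4a1 encodes band 3, the anion exchanger of the red cell membrane. Mature red cells have no nucleus, and reticulocytes, the youngest cells of the circulation, still hold globin messenger RNA.

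Within each pair the annotated coding sequences were nearly the same, which bears on every value of a single copy. In the mm10 assembly and the GENCODE M21 annotation, Hba-a1 (ENSMUSG00000069919.7) lies at chr11:32283511-32284465 and Hba-a2 (ENSMUSG00000069917.7) at chr11:32296489-32297298, both on the plus strand. Hbb-bs (ENSMUSG00000052305.6) lies at chr7:103826534-103828096 and Hbb-bt (ENSMUSG00000073940.3) at chr7:103812524-103813996, both on the minus strand. Each gene has 3 coding exons. The alpha copies share all but 1 of 426 coding bases (99.8% identity), and the beta copies all but 1 of 441 (99.8%). The alpha difference is C381T, read from Hba-a1 to Hba-a2 with positions counted from 1 at the first base of the start codon. The beta difference is C417T, read from Hbb-bs to Hbb-bt in the same way. Both fall on the third base of a codon, codon 127 of alpha and codon 139 of beta. The 41 coding bases around each difference are printed because they hold the whole of the coding difference between the annotated copies. The CAST alleles that these mice also carry were not examined. The capital marks the base that differs, and all 4 windows lie in the last coding exon of their genes at chr11:32284323-32284363, chr11:32297140-32297180, chr7:103826672-103826712 and chr7:103812663-103812703.
Hba-a1: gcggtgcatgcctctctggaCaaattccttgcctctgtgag
Hba-a2: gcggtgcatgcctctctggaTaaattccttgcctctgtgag
Hbb-bs: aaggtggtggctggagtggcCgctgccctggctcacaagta
Hbb-bt: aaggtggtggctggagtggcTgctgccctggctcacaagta

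Most words of the main globin transcripts, as annotated, also occurred in the other copy of the pair. Of the 669 words of 31 bases in the main Hba-a1 transcript, 477 (71.3%) also occurred in the other copy, and of the 524 in the main Hba-a2 transcript, 477 (91.0%) did. Only 16 words (3.05%) of the Hba-a2 transcript occurred in no other annotated transcript, and all 16 reached past the end of the coding sequence. The Hba-a1 transcript had 161 such words (24.1%). All 161 began in the 161 bases by which its annotated start lies upstream of the RefSeq start. The 250 bases before the RefSeq starts of the alpha copies, which hold that stretch, were the same at 247 of 247 aligned bases. Words found in no other gene, though allowed in other transcripts of the same gene, numbered 191 (28.6%) in Hba-a1 and 47 (8.97%) in Hba-a2. The beta copies were easier to separate. Hbb-bs shared 400 of its 598 words (66.9%) with Hbb-bt, and Hbb-bt shared 400 of its 673 (59.4%) with Hbb-bs. Alas2 and Slc4a1 shared no word with another gene.

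The values below come from a pair of quantifications that the authors made of the same reads. One set, called alignment-based here, started from transcriptome alignments, while the other, called FASTQ-based, used the raw sequence files. Expected counts over annotated genes summed to 31191535 in replicate 1 and 27079700 in replicate 2. Spike-ins took 0.350% and 0.378% of the counts. All 8 markers of cortical neurons and glia were detected, which here means a TPM (a level corrected for transcript length and scaled to a fixed total) of at least 1 in both libraries. By that rule 12933 of the 22015 nuclear protein-coding genes were detected in the alignment-based tables, which is the background for the detection counts below. Snap25, a synaptic membrane protein, had 1101 and 1126 TPM in replicates 1 and 2, and Slc1a2, the astrocyte glutamate transporter, had 886 and 994 TPM. The tables give no counts by parental allele. How reads of CAST alleles were divided between the globin copies was not tested.

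Globin transcripts were detected in the cortex at levels above those of most protein-coding genes. Together the 4 globin genes had 662 TPM in replicate 1 and 501 TPM in replicate 2 (582 ± 114 TPM, SD, n = 2), from 7274 and 4596 expected counts. They took 0.0233% and 0.0170% of the counts over annotated genes. In bulk tissue, fewer cells of a type and less RNA per cell cannot be told apart.

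Among the alpha genes, Hba-a1 had 218.67 TPM in replicate 1 and 161.34 TPM in replicate 2. That is 190.0 ± 40.5 TPM (SD, n = 2), and it ranked 259 and 443 among 22015 nuclear protein-coding genes. Hba-a2 had 186.39 TPM in replicate 1 and 145.28 TPM in replicate 2 (166 ± 29.1 TPM, SD, n = 2), and ranked 343 and 534. Both alpha copies were higher in replicate 1. The means of the alpha copies differed by less than the SD of either across libraries, although Hba-a1 was the higher in each library.

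Among the beta genes, Hbb-bs had 222.69 TPM in replicate 1 and 170.44 TPM in replicate 2 (197 ± 36.9 TPM, SD, n = 2). Hbb-bt had 34.41 TPM in replicate 1 and 24.04 TPM in replicate 2 (29.2 ± 7.33 TPM, SD, n = 2). Hbb-bs ranked 250 and 411 among the nuclear protein-coding genes, and Hbb-bt ranked 3315 and 4862. The values of the beta copies did not overlap, and Hbb-bs was the higher in each library.

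The remaining pair of erythroid genes was far lower. Alas2 (ENSMUSG00000025270.13, chromosome X) had 2.46 TPM in replicate 1 and 2.44 TPM in replicate 2, from 91 and 74 counts (exact 95% Poisson intervals of 73.3 to 112 and 58.1 to 92.9). Slc4a1 (ENSMUSG00000006574.15, chromosome 11) had 0.32 TPM and 0.22 TPM, from 8 and 4 counts with intervals of 3.45 to 15.8 and 1.09 to 10.2. Intervals cover counting error only, because reads from amplified libraries are not independent molecules. Slc4a1 was below the detection level in both libraries.

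In order of mean TPM the genes ran Hbb-bs, Hba-a1, Hba-a2, Hbb-bt, Alas2 and Slc4a1. The ranges of the top 3 overlapped across libraries, although their order was the same within each library, while each step below them was wider than the spread of the genes on either side. For each TPM of Alas2 there were 269 TPM of globin in replicate 1 and 205 in replicate 2. The plot of TPM by library shows that the order of the globin copies depended on the quantification.

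**Figure D1:**
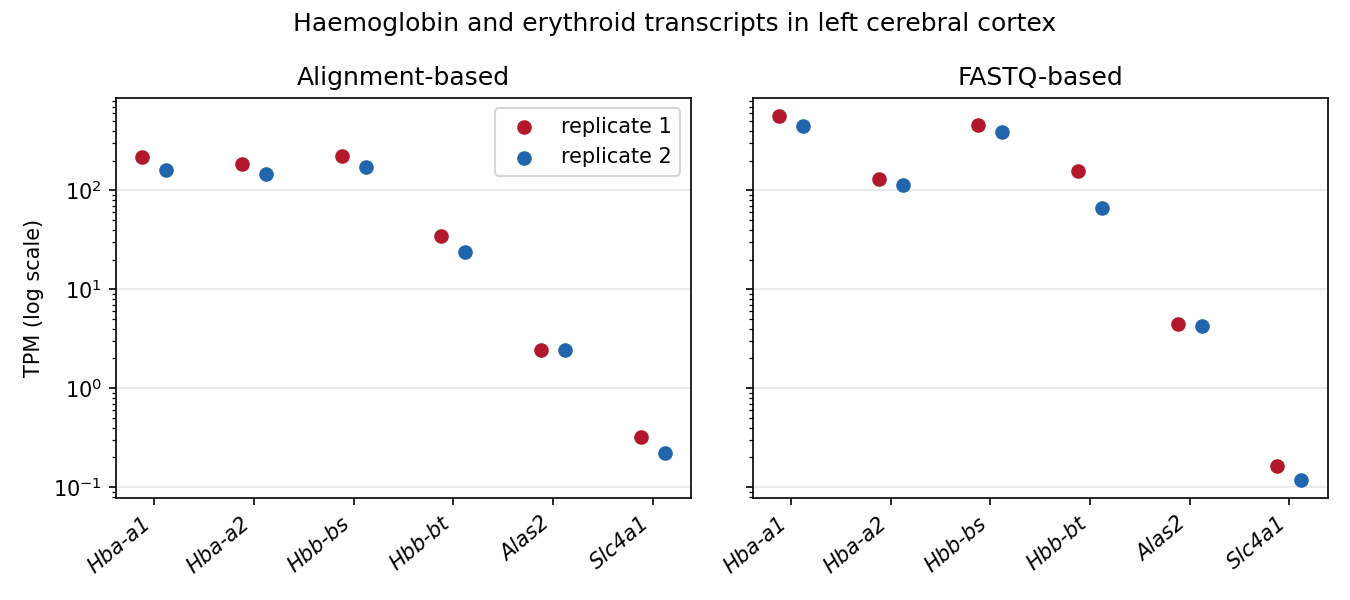
TPM on a log scale (vertical axis) of the 6 genes in replicate 1 (red) and replicate 2 (blue), each point 1 library, from the alignment-based tables on the left and the FASTQ-based tables on the right. Hba-a2 stands close to Hba-a1 on the left and below it on the right, and Alas2 and Slc4a1 lie far below the globins in both.

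Alpha globin was above beta globin in both libraries and both quantifications. The alpha pair summed to 405 TPM against 257 TPM of the beta pair in replicate 1, and to 307 TPM against 194 TPM in replicate 2. The ratio of alpha over beta was 1.58 in each library (1.58 ± 0.000791, SD, n = 2). In these alignment-based tables the libraries thus differed in globin level by far more than in the alpha to beta ratio. The SDs of this ratio, here and below, rest on 2 libraries and are not a measure of its precision. They leave out counting error, for which no interval of the ratio was computed.

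The size of that ratio depended on the measure. From expected counts with no length correction it was 1.53 ± 0.00338, per kilobase of transcript 1.55 ± 0.00576 and per kilobase of coding sequence 1.58 ± 0.0035 (SD, n = 2 each). From FASTQ-based TPM it was 1.13 in replicate 1 and 1.22 in replicate 2 (1.18 ± 0.0619, SD, n = 2). From FASTQ-based counts it was 1.23 and 1.49 (1.36 ± 0.182, SD, n = 2). The plot of alpha over beta by measure shows all alignment-based values above all FASTQ-based ones. With 2 libraries no test was made.

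**Figure D2:**
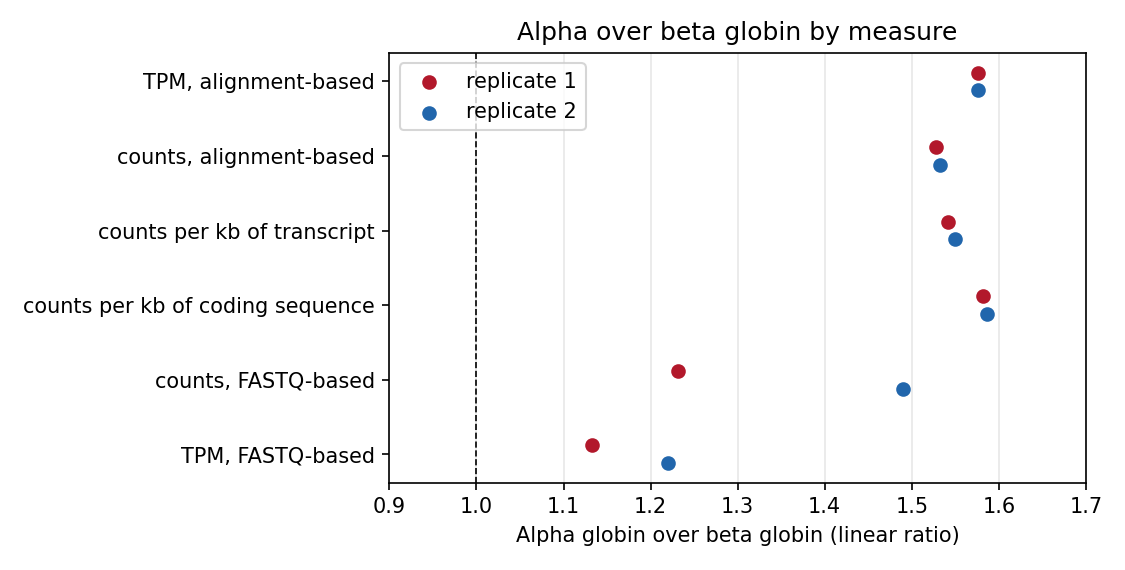
Alpha globin (Hba-a1 plus Hba-a2) over beta globin (Hbb-bs plus Hbb-bt) as a linear ratio on the horizontal axis for 6 measures, with replicate 1 in red and replicate 2 in blue. Every point lies to the right of the dashed line at 1, and the alignment-based measures lie between 1.53 and 1.59 while the FASTQ-based ones lie lower.

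The division of reads between the copies differed between the quantifications. Hba-a1 took 54.0% of the alpha TPM in replicate 1 and 52.6% in replicate 2 in the alignment-based tables (53.3 ± 0.966%, SD, n = 2). In the FASTQ-based tables it took 81.0% and 79.6% (80.3 ± 0.981%, SD, n = 2). As shares of counts, Hba-a1 took 59.2 ± 0.982% of the alignment-based and 87.1 ± 0.656% of the FASTQ-based alpha counts (SD, n = 2 each). Within either quantification the libraries were close together, and the quantifications lay far outside that spread.

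Among the globins Hba-a2 showed the widest gap in counts. It had 1765 counts in the alignment-based table against 417 in the FASTQ-based one in replicate 1, and 1155 against 349 in replicate 2. The authors' posterior SD for the split, the same for both alpha copies, was 69.4 counts in replicate 1 and 48.9 in replicate 2. The gap between the quantifications was therefore 19.4 posterior SDs in replicate 1 and 16.5 in replicate 2. On that scale the gap of Hbb-bs was wider in replicate 1, at 25.9 posterior SDs, and narrower in replicate 2, at 9.23. This posterior SD covers the division of ambiguous reads within 1 method only. The alpha pair total also differed, at 4396 alignment-based against 3341 FASTQ-based counts in replicate 1, and 2781 against 2603 in replicate 2. The gap of Hba-a2 is therefore not one of the split alone. Because the copies share most of their sequence, the value of each copy is uncertain, and sums over the pair are given beside it.

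The division of the beta copies differed less between the quantifications. Hbb-bs took 86.6% of the beta TPM in replicate 1 and 87.6% in replicate 2 in the alignment-based tables (87.1 ± 0.723%, SD, n = 2). The FASTQ-based share was 74.6% in replicate 1 and 85.4% in replicate 2 (80.0 ± 7.67%, SD, n = 2). The FASTQ-based libraries thus differed from each other by more than the means of the quantifications did. Hbb-bt had 432 alignment-based against 819 FASTQ-based counts in replicate 1, and 254 against 341 in replicate 2. Hbb-bs was above Hbb-bt by 6.78 ± 0.437-fold in alignment-based TPM and by 4.405 ± 2.08-fold in FASTQ-based TPM (SD, n = 2 each).

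**Figure D3:**
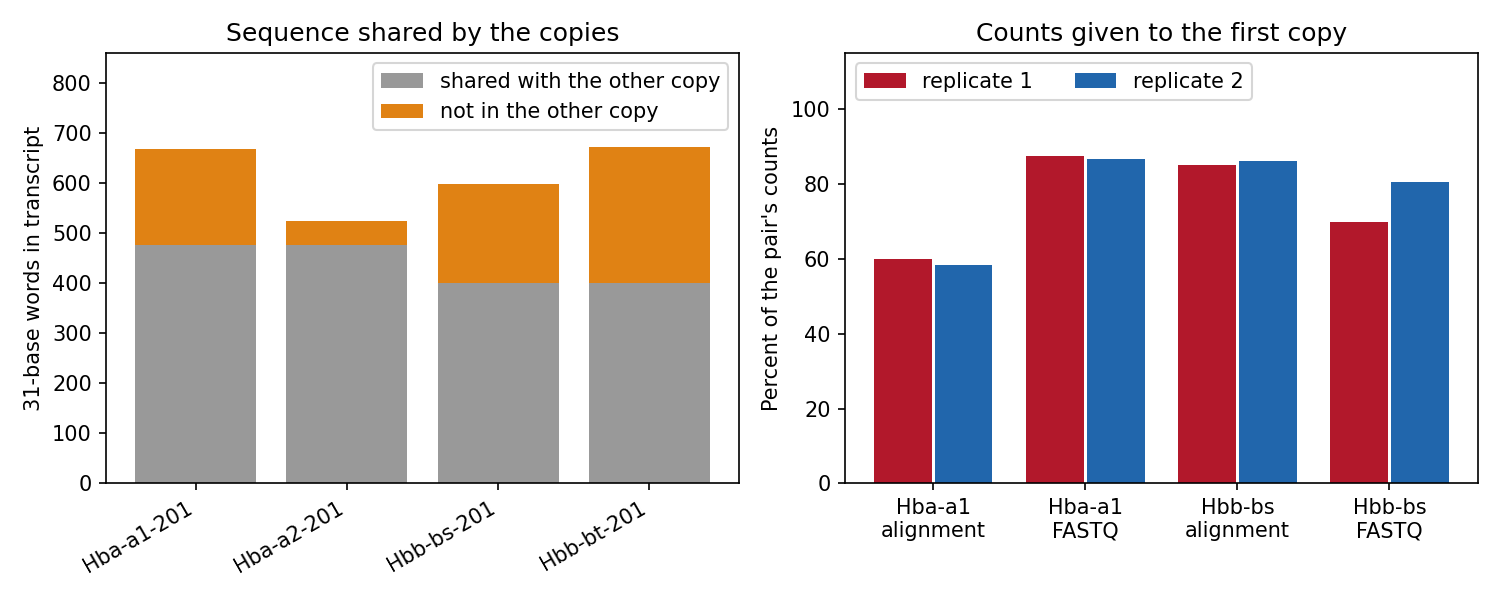
Left, the number of 31-base words in the main transcript of each globin gene (vertical axis), divided into words also found in the other copy (grey) and words that are not (orange). Right, the percent of each pair's counts given to Hba-a1 or Hbb-bs in each quantification, with replicate 1 in red and replicate 2 in blue. On average Hba-a1 takes 59.2% of the alignment-based and 87.1% of the FASTQ-based alpha counts.

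Summed over a pair, the quantifications were closer in counts than in TPM as deposited. Alignment-based over FASTQ-based counts were 1.32 in replicate 1 and 1.07 in replicate 2 for the alpha pair, and 1.06 and 1.04 for the beta pair. The median over 16024 genes at a mean TPM of at least 1 was 0.944 and 0.931. For TPM the same ratio was 0.584 and 0.548 for the alpha pair and 0.420 and 0.424 for the beta pair, against a median of 0.643 and 0.659 over all those genes. Globin transcripts are short. For the 1596 genes of 500 to 1000 bases the median TPM ratio was 0.591 and 0.599.

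Effective length, the length the quantifier divides a count by, was longer in the alignment-based tables. For the main Hba-a2 transcript of 554 bases it was 455 bases in the alignment-based table of each library, against 196 in replicate 1 and 216 in replicate 2 in the FASTQ-based table. For the main Hba-a1 transcript of 699 bases it was 600 in the alignment-based table of each library, against 323 and 358 in the FASTQ-based one. The part of effective length in the TPM gap was not tested.

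After TPM was rescaled over nuclear protein-coding genes in both tables, the median ratio over all genes was 1.04 in replicate 1 and 1.05 in replicate 2. On that scale Hba-a2 was the only globin at least 2-fold higher in the alignment-based tables, by 2.30-fold and 2.03-fold, and 6.38% and 5.68% of all genes passed that fold. Hbb-bt was the only globin at least 2-fold lower, with a ratio of 0.360 in replicate 1, where 1.87% of all genes passed that fold. In replicate 2 its ratio was 0.574 and it did not pass, where 1.84% did. Hba-a1 had ratios of 0.633 and 0.577, and Hbb-bs had 0.792 and 0.693. Alas2, which shares no sequence word with another gene, had 0.892 and 0.904. Slc4a1, which shares none either, had 3.17 and 2.98, from 8 and 4 alignment-based and 11 and 7 FASTQ-based counts. On the same scale the alpha pair had ratios of 0.949 in replicate 1 and 0.873 in replicate 2, and the beta pair 0.682 and 0.676.

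The transcripts that carried the reads also differed by quantification. The alignment-based tables gave 89.0 ± 0.526% of the Hba-a1 TPM to its protein-coding transcript and 10.96 ± 0.526% to a retained-intron transcript (SD, n = 2 each). That retained-intron transcript had 190 counts with a posterior SD of 51.3 in replicate 1, and 126 with 70.7 in replicate 2. The FASTQ-based tables listed it at 0 in both libraries. It held no 31-base word of its own, so reads assigned to it cannot be told from reads of other transcripts by such a word. All Hba-a2 and Hbb-bt reads went to the single protein-coding transcript in both quantifications.

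Alas2 reads fell mostly on its longest protein-coding transcript. That transcript took 60.0 ± 5.43% of alignment-based and 55.1 ± 13.8% of FASTQ-based Alas2 TPM (SD, n = 2 each). A further protein-coding transcript took 30.6 ± 3.64% of alignment-based and 8.46 ± 11.9% of FASTQ-based TPM (SD, n = 2 each). A processed transcript without a coding sequence took 9.39 ± 1.79% of alignment-based and 36.4 ± 1.87% of FASTQ-based TPM (SD, n = 2 each). In the alignment-based tables this processed transcript had 1.99 counts (posterior SD 2.9) in replicate 1 and 2.12 (posterior SD 2.7) in replicate 2. The FASTQ-based tables gave it 5.26 and 5.28 counts, so its share of TPM rests on few reads in both quantifications. The main Slc4a1 transcript took 81.6 ± 2.99% of the alignment-based counts and 20.03 ± 2.61% of the alignment-based TPM (SD, n = 2 each), and all of both in the FASTQ-based tables. With 8 and 4 counts in replicates 1 and 2, the make-up of Slc4a1 rests on few reads.

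All 4 globin genes were higher in replicate 1 than in replicate 2. On CPM scaled by edgeR's TMM factors, the summed globins had 236 CPM in replicate 1 against 168 CPM in replicate 2, a ratio of 1.41 (exact 95% interval of the count ratio 1.36 to 1.46). All 4 genes were at least 25% higher in replicate 1, where 3.56% of the 11720 genes at a mean CPM of at least 5 were. None was at least 2-fold higher, where 0.188% of those genes were. The copies of a pair share reads, so the 4 genes are not 4 independent measurements.

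In the alignment-based counts the alpha and beta clusters gave near equal ratios. The alpha pair was 1.41-fold higher in replicate 1 (1.34 to 1.48) and the beta pair 1.41-fold (1.33 to 1.499). By gene, the ratio was 1.44 (1.35 to 1.53) for Hba-a1, 1.36 (1.26 to 1.47) for Hba-a2, 1.40 (1.31 to 1.49) for Hbb-bs and 1.52 (1.29 to 1.78) for Hbb-bt. Over all genes at that CPM the median log2 ratio was 0.03 and the 5th to 95th percentile of the ratio ran from 0.821 to 1.22. The summed globins stood at the percentile 98.8, and 139 genes (1.19%) had a ratio at least as high. With 1 library per animal there is no test of this difference.

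Alas2 had a ratio of 1.10 (0.797 to 1.51) and Slc4a1 a ratio of 1.78 (0.477 to 8.08). Both intervals include 1 and the globin ratio, so at this depth neither a difference nor its absence could be read for these genes. There were 79.9 globin counts per Alas2 count in replicate 1 and 62.1 in replicate 2.

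The difference was smaller in the FASTQ-based counts. The summed globins were 1.28-fold higher in replicate 1 (1.23 to 1.34), the alpha pair 1.18-fold (1.13 to 1.247) and the beta pair 1.43-fold (1.35 to 1.52). Here the intervals of the alpha and beta pairs did not overlap. Only Hbb-bt, with a ratio of 2.21 (1.95 to 2.52), was at least 25% higher, where 3.97% of genes were in that table, and it also passed 2-fold, where 0.223% did. Hba-a1 had 1.20 (1.13 to 1.27), Hba-a2 1.10 (0.954 to 1.27) and Hbb-bs 1.24 (1.16 to 1.33). The plot of the ratios shows that all 4 globins were higher in replicate 1 in both quantifications, with the interval of Hba-a2 including 1 in the FASTQ-based counts.

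**Figure D4:**
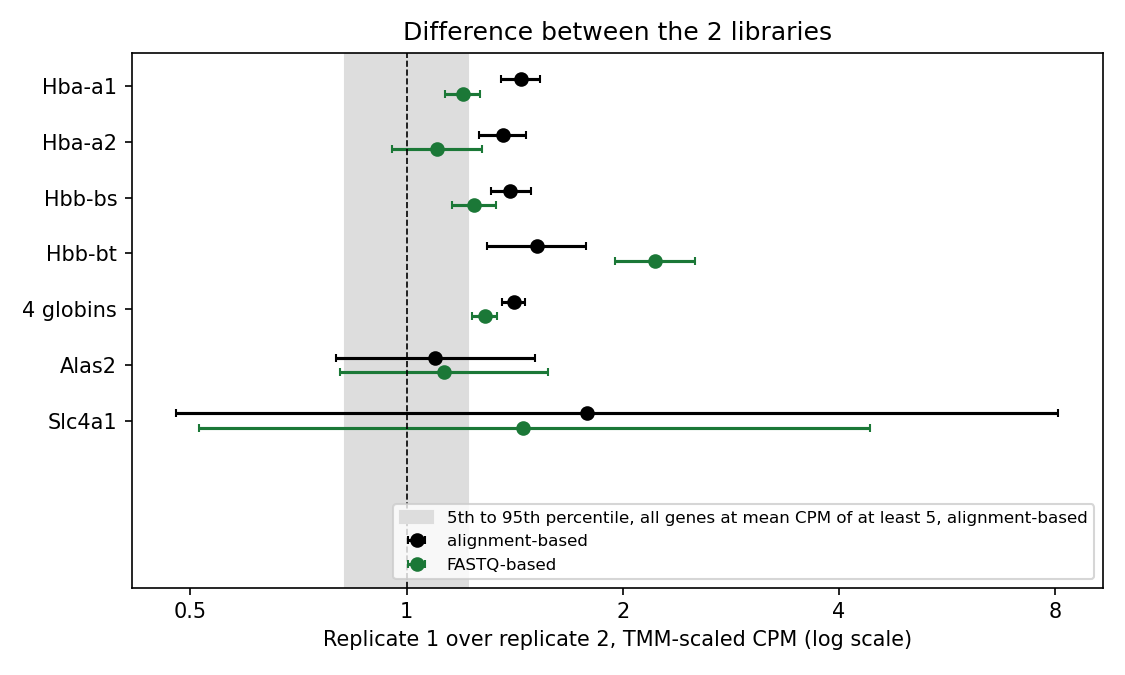
Ratio of replicate 1 over replicate 2 in TMM-scaled CPM (horizontal log axis) with exact 95% intervals of the count ratio, alignment-based in black and FASTQ-based in green, and the 5th to 95th percentile of all genes at a mean CPM of at least 5 in grey (alignment-based). The alignment-based globin ratios of 1.36 to 1.52 lie right of the grey band, and the intervals of Alas2 and Slc4a1 span 1.

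Markers of other cell types moved with the globins in part. The choroid plexus, which makes cerebrospinal fluid, was represented by 6 markers whose summed level was 80.9 CPM in replicate 1 and 7.66 CPM in replicate 2. Transthyretin (Ttr), its most abundant secreted product, had 96.0 TPM in replicate 1 and 4.79 TPM in replicate 2, a ratio of 21.3 (17.2 to 26.5), and Kl had 1.39 and 1.00 TPM. Ttr alone made up 70.5 CPM of the sum in replicate 1 and 3.32 CPM in replicate 2. All 5 choroid plexus markers counted in both libraries were higher in replicate 1. The share of all such genes higher in replicate 1 was not computed, so this count has no background. Of the 5 markers 1 is also in the list of red cell skeleton genes below. Only Ttr reached a mean CPM of at least 5, and over all genes at that CPM the median log2 ratio was 0.03. Of the 11 endothelial markers 2 were at least 25% higher in replicate 1, where 3.56% of all genes were. Another 1 was at least 25% higher in replicate 2, for which no share over all genes was computed. The markers past that fold, chosen for naming after their values were seen, were Ly6c1, with a ratio of 1.33 (1.16 to 1.54), Slc2a1, with 1.26 (1.19 to 1.34), and Tek, with 0.775 (0.673 to 0.892). In all 4 of the 11 were higher in replicate 1, their median log2 ratio was -0.08, and the list had a summed level of 375 CPM in replicate 1 and 362 CPM in replicate 2. Among them Slc2a1, the glucose transporter of the blood-brain barrier, had 48.4 and 40.4 TPM, and Slco1c1, a thyroid hormone transporter, had 34.8 and 33.6 TPM. The part of these cells in the globin difference was not tested.

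White cell markers had few counts in either library in the alignment-based tables. The 8 neutrophil markers summed to 4 counts in replicate 1 and 7 in replicate 2, with Retnlg, Mmp8 and Elane at 0 in both and at most 0.30 TPM for S100a8 and 0.14 TPM for S100a9. The 8 lymphocyte markers summed to 11 and 22 counts, with Cd3d and Nkg7 at 0 in both. Cd79a, a B cell receptor component, had 8 and 7 counts and Cd79b 1 and 6 counts. The FASTQ-based tables gave Cd3d 20.2 and 25.3 counts, so its 0 depends on the quantification. They gave Ms4a1 24.6 and 24.1 counts against 0 and 3 expected counts, and Cd3g 10 and 10 against 1 and 1. The other lymphocyte markers had similar counts in both quantifications. The low total of the lymphocyte list thus depends on the quantification as well. The 8 platelet markers summed to 75.6 and 63.9 counts, with Gp1ba at 0, Itga2b at 1.54 and 2.56 TPM and the platelet chemokine Pf4 at 0.98 and 1.74 TPM. For a gene at 0 in the alignment-based tables, counting error alone leaves a level of up to 3 counts possible. That is 0.0974 CPM in replicate 1 and 0.109 CPM in replicate 2, and it does not cover how a quantification assigns reads.

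In both quantifications no other gene of the globin clusters reached the detection level. Hba-x, Hbb-y, Hbb-bh1 and Hbb-bh2, annotated as protein-coding, and Hbb-bh0 and Hbb-bh3, annotated as unprocessed pseudogenes, had 0 expected counts in both libraries. The theta globin genes Hbq1a and Hbq1b, which are near copies of each other, had 2.92 and 3.08 expected counts in replicate 1 and 0 and 7 in replicate 2. Of the 4 globins outside the red cell, Cygb (cytoglobin) had 17.4 and 17.5 TPM and Ngb, the neuronal neuroglobin, 3.48 and 2.53 TPM. Ngb had a replicate ratio of 1.41 (1.03 to 1.94) and Cygb one of 1.06 (0.952 to 1.17). The summed adult globins were 38.01 times the TPM of Cygb in replicate 1 and 28.6 times in replicate 2.

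Of the haem synthesis genes reported here 9 of 9 were detected, and Alas2 was the lowest. Alas1 had 58.9 TPM in replicate 1 and 63.7 TPM in replicate 2, which was 23.9 and 26.1 times the TPM of Alas2. Next were the later enzymes Fech, which inserts iron (28.7 and 30.7 TPM), Urod (27.1 and 25.5 TPM) and Cpox (17.5 and 20.7 TPM). Ppox had 12.8 and 13.6 TPM, Alad 11.1 and 12.2 TPM, Uros 9.82 and 10.6 TPM, and the mitochondrial carrier Slc25a38 12.02 and 11.61 TPM. Of the 8 at a mean CPM of at least 5, 4 were higher in replicate 1 and none was at least 25% higher in either library. Over all genes at that CPM 3.56% were at least 25% higher in replicate 1, so none of 8 is near that share. The share for replicate 2 was not computed. The median log2 ratio of the 8 genes was -0.0042, beside 0.03 over all genes. The globin ratio was thus above that of each of these genes that reached that CPM. In the haem breakdown and binding list 6 of 8 were detected, led by the scavenger receptor Lrp1 (124 and 146 TPM) and the haem oxygenase Hmox2 (34.5 and 35.9 TPM).

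Genes restricted to red cell membranes had few counts in the alignment-based tables. None of 10 was detected there, and together they had 42 counts in replicate 1 and 31 in replicate 2. Rhag, Rhd, Kel and Cldn13 were at 0 in both libraries. The FASTQ-based tables gave Rhag 4.18 and 4.14 counts, so its 0 depends on the quantification. They gave Epb42 20.7 and 47.4 counts against 1 and 0 expected counts, and Ermap 66.7 and 76.8 against 22 and 24. The low total of the list thus depends on the quantification as well. Ermap, an erythroblast membrane protein, had the highest mean at 0.25 and 0.32 TPM, followed by Slc4a1, and was detected in the FASTQ-based tables at 2.56 and 3.10 TPM. The skeleton proteins that red cells share with other tissues were detected in 9 of 11 cases. Add1 had 181 and 186 TPM and Dmtn 157 and 162 TPM. For the 8 of these at a mean CPM of at least 5, the median log2 replicate ratio was 0.029, beside 0.035 over all genes at that CPM.

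Of the 8 erythroid transcription factors 3 were detected in the alignment-based and 4 in the FASTQ-based tables. The cut of 1 TPM is not alike in both. The median ratio of alignment-based over FASTQ-based TPM was 0.643 in replicate 1 and 0.659 in replicate 2. The background of detected genes covers the alignment-based tables only. Gata1, the main regulator of the erythroid programme, and Gfi1b had 0 counts in both libraries. The highest were Ldb1 (45.5 and 46.6 TPM) and Zfpm1 (16.1 and 13.4 TPM), which other cells use as well. Of the 12 late erythroid genes reported here 9 were detected, led by the peroxiredoxin Prdx2 (155 and 147 TPM) and the mitophagy receptor Bnip3l (85.4 and 96.0 TPM), both also expressed outside red cells. Hemgn, which is restricted to blood-forming cells, was at 0 expected counts and had 2.00 and 5.31 FASTQ-based counts. None of the 6 late erythroid genes at a mean CPM of at least 5 was at least 25% higher in replicate 1. Over all genes at that CPM 3.56% were, so none of 6 is near that share. The plot of erythroid and blood cell genes shows the adult globins apart from the other erythroid-restricted genes.

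**Figure D5:**
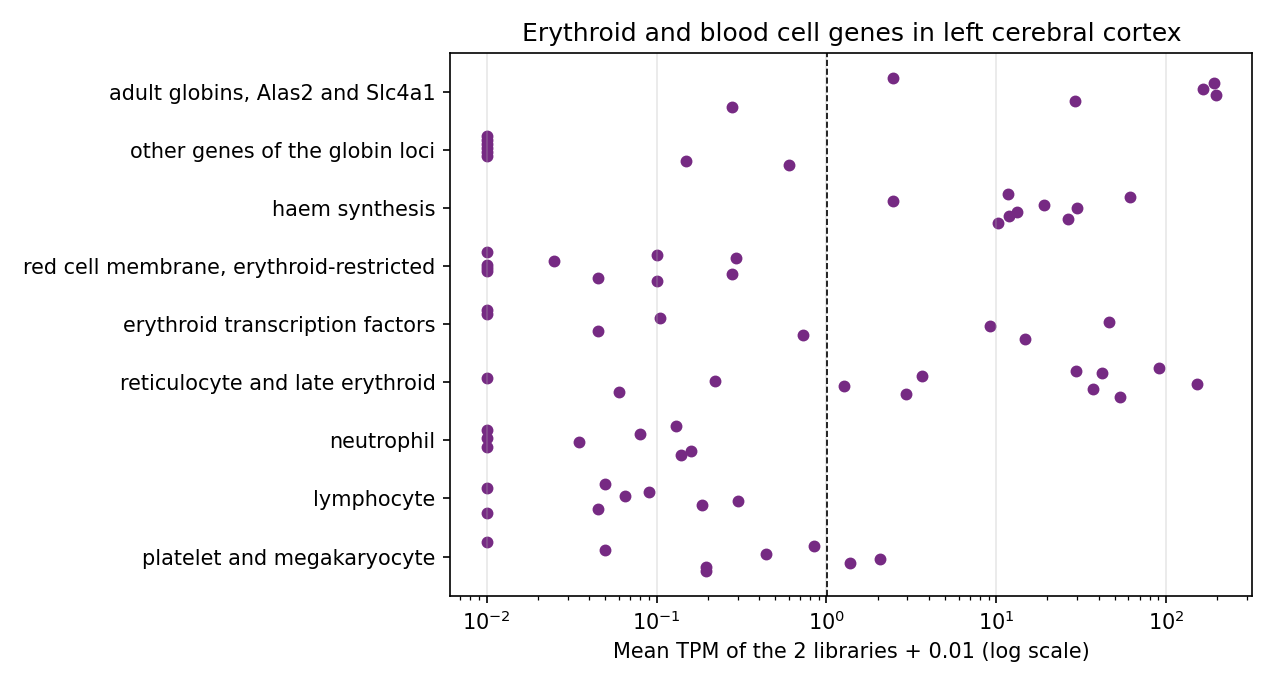
Mean alignment-based TPM of both libraries plus 0.01 (horizontal log axis) for each gene of 9 lists, each point 1 gene, with the dashed line at the detection level of 1 TPM and genes at 0 on the left edge. The adult globins lie between 29.2 and 197 TPM, while the other genes of the globin clusters and the erythroid-restricted membrane genes all lie left of the line.

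The proximal promoters of an alpha and a beta gene are printed because the clusters on separate chromosomes gave near equal replicate ratios in the alignment-based counts. They are the 100 bases before the RefSeq start (GRCm38.p6) of Hba-a2 at chr11:32296392-32296491, plus strand, and of Hbb-bs at chr7:103827929-103828028, minus strand. Of the 6 genes 5 matched the RefSeq promoter table by symbol, and Slc4a1 did not. Capitals mark matches to the searched motifs.
Hba-a2: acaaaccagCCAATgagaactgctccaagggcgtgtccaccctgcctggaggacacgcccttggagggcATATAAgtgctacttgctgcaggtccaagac
Hbb-bs: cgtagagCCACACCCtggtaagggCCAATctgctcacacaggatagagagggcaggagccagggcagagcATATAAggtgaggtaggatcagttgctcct

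Each of 4 motifs was searched on both strands of the 250 bases before the start, and overlaps between motifs were allowed. A box known in many promoters, CCAAT, occurred in 33.8% of 32851 promoters. The letters bound by erythroid factors of the Gata family, searched as GATAA, occurred in 22.6%. The site known for binding Klf factors, searched as CCNCNCCC, occurred in 45.9%. The letters of the start-site box, searched as ATATAA, occurred in 9.10%. All 4 globin promoters held the first, second and last of these motifs, and both beta promoters also held the Klf motif. The Alas2 promoter held 1 Gata motif and 4 Klf motifs. The alpha promoters were the same at 247 of 247 aligned bases, and the beta promoters at 178 of 243 (73.3%). A match describes these letters only.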

How the data were processed

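Total RNA-seq of 2 libraries of 1 group was used as deposited. Per the labels and the accompanying file descriptions, the authors quantified each library on mm10 with GENCODE M21. Which aligner and quantifiers were run is not stated in the labels or descriptions used. Of the deposited tables, the alignment-based ones hold an expected count, TPM and FPKM per gene, where the authors' TPM total includes the spike-ins, and a percent of the gene's TPM per transcript. For each transcript the deposited FASTQ-based tables hold an estimated count and TPM, and sums by gene were taken.

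The 26248 entries that carry only a number took 6.39e-06% and 1.81e-05% of the counts in replicates 1 and 2 and stayed out of library sizes. Expected counts were scaled to CPM with TMM factors from edgeR 4.0.16 in R 4.3.3 (0.987 and 1.01), and DESeq2 1.42.0 size factors were an alternative. Scaling and the fold rule were tested on simulated data. No p-value was computed, since 1 library per animal gives none. Count intervals are exact at 95%. Sequence words of 31 bases were counted over GENCODE M21 transcripts. Python 3.11.15, pandas 2.3.3, numpy 2.4.6, scipy 1.17.1 and matplotlib 3.10.9 were used.

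Genes were named by rule: the 6 genes, all other genes of the globin clusters, the haem synthesis genes, and from each other list the 2 highest by mean TPM and those at 0 in both libraries. Cd3d, Cd3g, Ms4a1, Rhag, Epb42, Hemgn and Ermap are also set beside their FASTQ-based values, a comparison chosen after these were seen. The members, lists and fold thresholds were chosen with earlier results of these data known. Ahsp was not analysed here, and some genes of the lists are not reported here and stay out of the lists' counts.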

Additional observations from a re-analysis of the deposited data

How the results depend on the processing

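Of 181 alternative values over 52 results, 135 stayed within the limits set for their result and 46 moved. None was labelled as reversed, but most of these results are levels, shares or counts of genes, which have no direction to change. Of the 8 cortical neuron and glia markers, 3 were higher in replicate 1, and 5 were in FASTQ-based counts. Alpha over beta globin, 1.58 in alignment-based TPM, was 1.18 in FASTQ-based TPM, 1.53 in alignment-based counts, 1.36 in FASTQ-based counts, 1.55 per kilobase of transcript and 1.58 per kilobase of coding sequence, the last chosen after seeing the data. The Hba-a1 share of alpha globin, 53.3% in alignment-based TPM, was 80.3% in FASTQ-based TPM, 59.2% in alignment-based counts and 87.1% in FASTQ-based counts. The Hbb-bs share of beta globin, 87.1%, was 80.0%, 85.5% and 75.1% by the same measures. The ratio of replicate 1 over replicate 2 of the summed globins, 1.41, was 1.28 in FASTQ-based counts, 1.48 by spike-in totals and 1.32 in TPM as deposited. Globins at least 25% higher in replicate 1 numbered 4 of 4, and 1 of 4 in FASTQ-based counts. The share of all genes past that fold, 3.56%, was 5.96% at a mean CPM of at least 1, 13.2% over genes with a count in both libraries and 6.75% by spike-in totals, the last chosen after seeing the data. The cause of these shifts was not tested. Leaving out a replicate gave the value of the other library. No paired analysis was possible because both libraries belong to 1 group. Depth limits Slc4a1, at 8 and 4 counts in replicates 1 and 2, and Alas2.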
